A study of Mus musculus with 6 samples.

Results

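Ras is a membrane switch that is turned on when an exchange factor loads it with GTP, and active Ras starts the RAF, MEK and ERK kinase cascade. Here 9 genes that act before and after this cascade are described in mouse pro-B cells. Rasgrp1, Rasgrp2, Rasgrp3 and Sos1 encode exchange factors that load Ras or the related GTPase Rap. Dusp6, Spred1, Spred2, Spry1 and Spry2 encode inhibitors, several of them induced by ERK itself, that feed back on the cascade. The genes were taken by symbol from the deposited tables, and all 9 were found among 54752 gene identifiers. They were chosen by their FPKM in Skiv2l-deleted against control libraries, with that difference already in view, so each value of it for these 9 genes is a description and no test.

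Messenger RNA was measured in pro-B cells sorted from adult bone marrow, 1 library per mouse. There were 3 Skiv2lfl/fl-Cd79a-Cre mice (called Skiv2l-deleted) and 3 Skiv2lfl/fl mice (called control), and all 6 were C57BL/6. Both genotypes carry the floxed Skiv2l alleles, and a Cre is named for the Skiv2l-deleted mice only, so loss of Skiv2l and presence of Cre cannot be told apart. The protein made from Skiv2l is the RNA helicase that threads transcripts into the cytosolic exosome for decay, and Cd79a, the gene that drives the Cre, is active from the early B lineage stages on. No source used here gives the surface markers of the sort.

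Pro-B cells assemble the immunoglobulin heavy chain and depend on interleukin-7. Once a heavy chain pairs with the surrogate light chain, the pre-B cell receptor signals through diacylglycerol and calcium, and ERK is 1 of the kinases it activates. Rasgrp1 and Rasgrp3 proteins bind diacylglycerol and link antigen receptors to Ras in lymphocytes. Rasgrp2, also called CalDAG-GEFI, responds to calcium and acts mainly on Rap, while Sos1 reaches Ras through the adaptor Grb2. Dusp6 is a cytoplasmic phosphatase that removes phosphate from ERK. Spred proteins bring the GTPase-activating protein neurofibromin to the membrane, and Sprouty (Spry) proteins restrain signalling from receptor tyrosine kinases.

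The promoters of the 3 genes that differed between genotypes in the fit across all genes are shown here, since Rasgrp2 and Spred2 were both higher in Skiv2l-deleted libraries and Rasgrp1 was lower. Each window runs from 250 bases before to 50 bases after a RefSeq transcription start, 5′ to 3′ on the gene's strand, on GRCm38.p6. RefSeq gave 11 windows for the 9 genes. Rasgrp1 lies on the minus strand at chr2:117342828-117343127, the windows of the 2 Rasgrp2 starts on the plus strand at chr19:6399625-6399924 and chr19:6401455-6401754, and Spred2 on the plus strand at chr11:19924192-19924491. Capitals mark matches, on either strand, to the motifs named after the sequences.
Rasgrp1: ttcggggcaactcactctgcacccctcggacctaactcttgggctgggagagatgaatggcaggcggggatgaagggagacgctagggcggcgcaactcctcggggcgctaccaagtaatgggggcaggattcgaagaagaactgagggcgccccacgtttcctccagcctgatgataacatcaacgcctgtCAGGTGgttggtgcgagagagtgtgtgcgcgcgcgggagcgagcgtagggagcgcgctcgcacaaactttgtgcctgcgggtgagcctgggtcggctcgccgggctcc
Rasgrp2, start 1: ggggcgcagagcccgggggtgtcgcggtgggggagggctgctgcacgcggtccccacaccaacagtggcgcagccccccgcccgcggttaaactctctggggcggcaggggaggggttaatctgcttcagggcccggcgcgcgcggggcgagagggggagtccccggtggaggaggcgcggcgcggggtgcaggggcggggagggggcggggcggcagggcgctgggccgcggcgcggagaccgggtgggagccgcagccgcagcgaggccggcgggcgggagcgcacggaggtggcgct
Rasgrp2, start 2: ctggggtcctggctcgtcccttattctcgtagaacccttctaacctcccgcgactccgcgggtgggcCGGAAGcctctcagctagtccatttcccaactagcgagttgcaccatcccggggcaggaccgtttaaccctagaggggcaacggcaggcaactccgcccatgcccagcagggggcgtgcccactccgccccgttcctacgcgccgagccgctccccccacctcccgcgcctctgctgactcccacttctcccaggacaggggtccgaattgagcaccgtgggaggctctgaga
Spred2: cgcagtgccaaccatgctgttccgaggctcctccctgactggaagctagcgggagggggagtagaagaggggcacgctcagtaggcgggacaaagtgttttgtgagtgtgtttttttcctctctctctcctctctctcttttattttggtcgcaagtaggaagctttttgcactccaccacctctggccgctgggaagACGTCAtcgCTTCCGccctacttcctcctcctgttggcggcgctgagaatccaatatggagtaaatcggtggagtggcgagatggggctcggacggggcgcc
The Rasgrp1 window held 1 match to CAGGTG, an E-box bound by E2A, at position -58 relative to the start, as 20.2% of all 32851 RefSeq promoters of this length do. None of the other 10 windows held that motif. The ETS motif CGGAAG, present in 16.9% of all promoters, was found at -43 in Spred2, at -183 before the second Rasgrp2 start, at -62 in Dusp6 and at 2 positions in Spred1. Spred2 also held TGACGT, the core of the cyclic AMP response element, at -52 (7.51% of all promoters), and Sos1 held the RUNX motif TGTGGT at -206 (16.8%). The AP-1 motif TGANTCA (7.81% of all promoters), the EBF1 motif (TCCC, 2 bases of any kind, GGGA; 0.904%) and the C/EBP-ATF motif TGATGNAA (3.97%) matched none of the 11 windows. No matches overlapped each other. The windows of Rasgrp1 (63.7% GC), Rasgrp2 (80.0% and 66.0%) and Spred2 (57.0%) were all above the 52.7% median GC of all promoters. These matches describe letters in a window and show no binding.

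The depth of the libraries came to 1.74 to 2.40 Gb of aligned sequence, and they had 12975 to 13738 genes at 1 FPKM or more. FPKM is a level scaled to transcript length and to the number of fragments in the library. Skiv2l itself was at 9.53, 16.1 and 10.9 FPKM in Skiv2l-deleted libraries, against 25.4, 20.2 and 46.3 FPKM in control libraries. The groups did not overlap, and the fit did not call the difference (limma adjusted p = 0.0630). The main component of variation, with 44.3% of the variance, separated the genotypes, and the second, with 33.1%, set control 3 and Skiv2l-deleted 2 apart from the other 4 libraries. Values without these 2 libraries are therefore given beside the result or, for the other genes of the 9 and for the pathway genes and marker sums, together after them. Without them Skiv2l was called lower (log2 fold change -1.08, limma adjusted p = 0.0172).

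All 9 genes passed the filter of 1 FPKM in at least 3 of the 6 libraries. In the limma fit across 13539 genes, 2 of the 9 were called higher and 1 lower in Skiv2l-deleted libraries at an adjusted p below 0.05, while 8.84% of all genes tested were called in either direction, 4.97% higher and 3.87% lower. Spred2 and Rasgrp2 were the higher pair and Rasgrp1 was the lower gene. The 3 Skiv2l-deleted values lay above all 3 control values in 4 of the 9 genes (Rasgrp2, Spred1, Spred2 and Spry1) and below them in Rasgrp1, where 32.2% of all genes did not overlap, 19.9% higher and 12.3% lower. In the other 4 genes the groups overlapped. The median log2 fold change of the 9 was 0.44, beside 0.06 for all genes tested. A positive log2 fold change means higher in Skiv2l-deleted, and all are on the log2(FPKM + 1) scale, where the change of a low gene comes out too small.

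**Figure D1:**
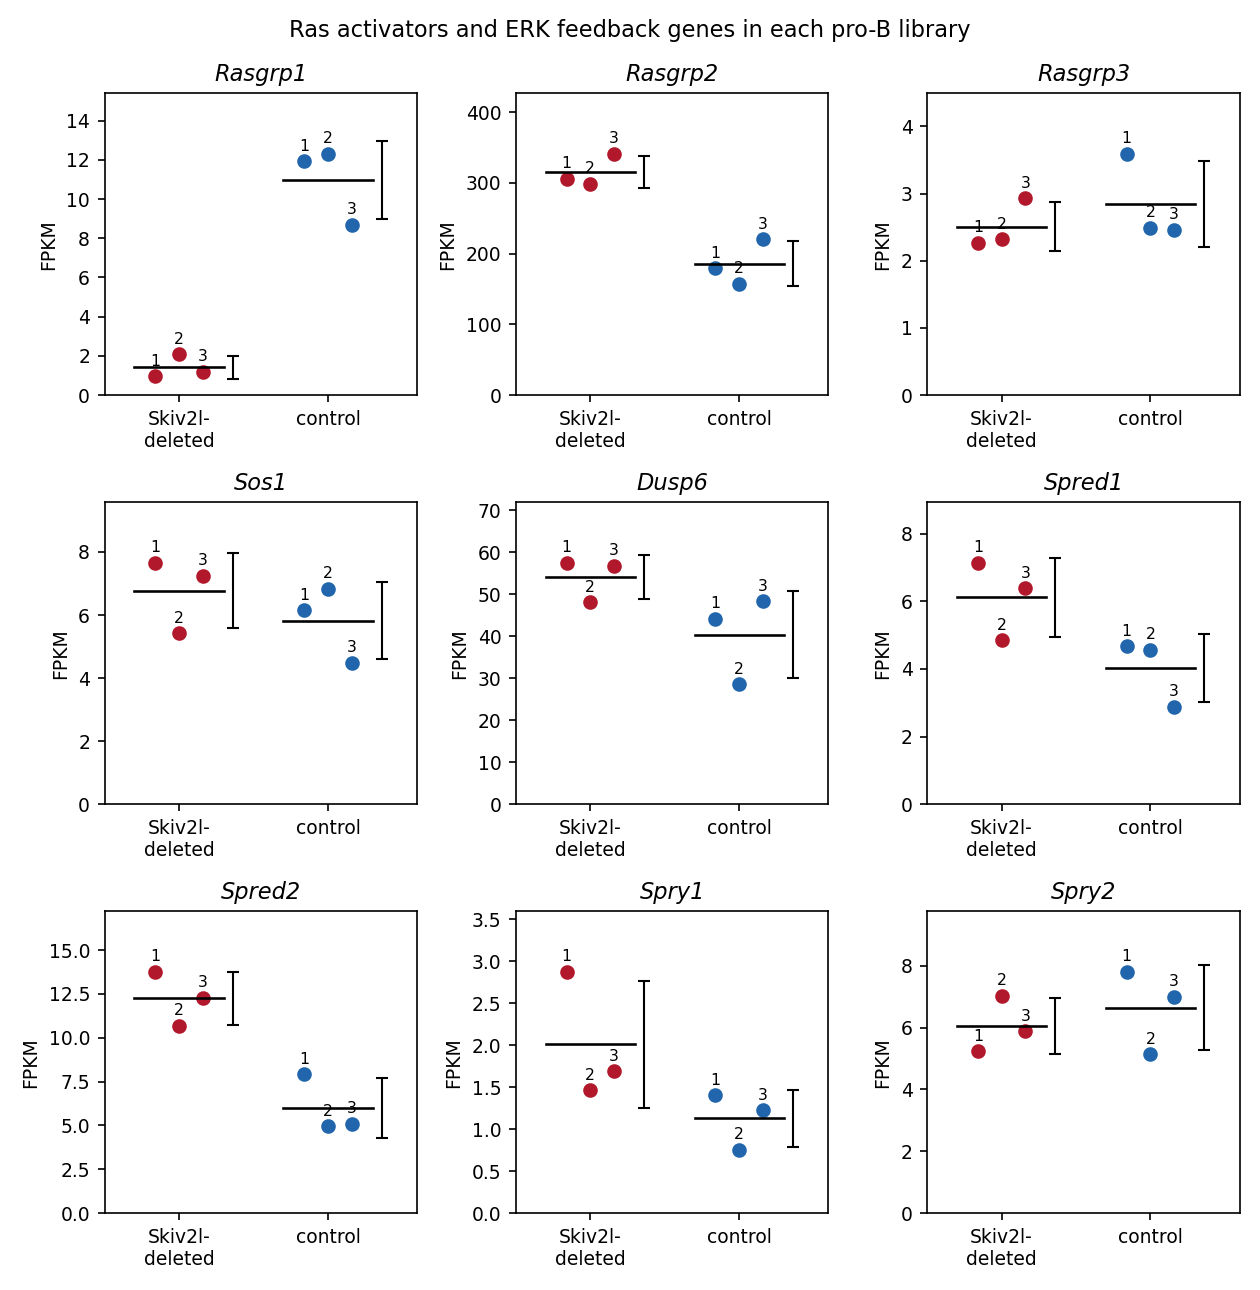
FPKM of the 9 genes in each library, with Skiv2l-deleted at the left and control at the right of each panel. Points are libraries with their replicate number, horizontal lines are means, bars are SD (n = 3 each), and each panel has its own axis from 0. Rasgrp1 lies at 0.961 to 2.09 FPKM in Skiv2l-deleted libraries, against 8.68 to 12.3 FPKM in control libraries, while Rasgrp3, Sos1, Dusp6 and Spry2 overlap.

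Rasgrp1 stood apart among the exchange factors. The gene (ENSMUSG00000027347.18, chr2:117279993-117343001, minus strand) had 0.961, 2.09 and 1.20 FPKM in Skiv2l-deleted libraries, against 11.9, 12.3 and 8.68 FPKM in control libraries. The highest Skiv2l-deleted library was thus well below the lowest control library. In these bulk samples fewer cells that express a gene and less RNA per cell cannot be told apart. The mean was 1.42 ± 0.597 FPKM in Skiv2l-deleted and 11.0 ± 1.99 FPKM in control libraries (SD, n = 3 each), 7.74-fold lower in Skiv2l-deleted. Its log2 fold change was -2.32 ± 0.22 (SE; 95% interval -2.84 to -1.80; limma adjusted p = 0.00429). Rasgrp1 was called under each of the 18 alternative settings, including each omission of 1 library, with a log2 fold change between -2.92 and -2.19. It was -2.66 (limma adjusted p = 0.00627) without control 3 and Skiv2l-deleted 2. Mean coverage of the gene was 1.48-, 3.76- and 2.68-fold in Skiv2l-deleted libraries and 21.1-, 20.4- and 13.5-fold in control libraries, so the lower values rest on fewer reads.

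Rasgrp2 was the most abundant of the 9 by FPKM in both genotypes. The gene (ENSMUSG00000032946.16, chr19:6399340-6415216, plus strand) had 306, 299 and 341 FPKM in Skiv2l-deleted libraries, against 180, 158 and 221 FPKM in control libraries. Every Skiv2l-deleted library was above every control library. The means were 315 ± 22.7 FPKM and 186 ± 31.9 FPKM (SD, n = 3 each), a ratio of 1.70 for Skiv2l-deleted over control. The log2 fold change was 0.77 ± 0.14 (SE; 95% interval 0.43 to 1.11; limma adjusted p = 0.0236). The call was kept in 11 of 18 alternatives and among the omissions of 1 library only without control 3 (limma adjusted p = 0.00919). It was lost without control 1 (0.0847) or control 2 (0.0674), and likewise without the first (0.0967), the second (0.0536) or the third Skiv2l-deleted library (limma adjusted p = 0.110), and it held at 0.94 without both control 3 and Skiv2l-deleted 2 (0.0130). Rasgrp2 overlaps the antisense gene Gm14965, and reads from the pair cannot be told apart where counting ignores strand.

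Rasgrp3, the other diacylglycerol-responsive member, was low in both genotypes. The gene (chr17:75435896-75529054, plus strand) had 2.27, 2.32 and 2.93 FPKM in Skiv2l-deleted libraries, against 3.59, 2.49 and 2.47 FPKM in control libraries. The groups overlapped, and control 1 alone was above the others. The log2 fold change was -0.13 with a 95% interval of -0.53 to 0.28, so the interval holds differences in both directions. Without control 1 it was 0.0077.

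Sos1, the adaptor-recruited exchange factor, also overlapped. The gene (chr17:80393751-80480453, minus strand) had 7.66, 5.43 and 7.24 FPKM in Skiv2l-deleted libraries, against 6.16, 6.83 and 4.48 FPKM in control libraries. The log2 fold change was 0.19, with a 95% interval of -0.26 to 0.64. Sos1 overlaps the gene Arhgef33, which makes its reads uncertain in the same way as those of Rasgrp2.

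Summed over Rasgrp1, Rasgrp2 and Rasgrp3, the family had 319 ± 22.8 FPKM in Skiv2l-deleted and 199.8 ± 29.9 FPKM in control libraries (SD, n = 3 each). Rasgrp2 made up 98.5% to 99.0% of that sum in Skiv2l-deleted libraries and 91.4% to 95.2% in control libraries. Rasgrp1 gave 0.311%, 0.691% and 0.346% of it in Skiv2l-deleted libraries, against 6.11%, 7.13% and 3.75% in control libraries. These shares depend on the deposited measure, because FPKM of Rasgrp2 is several times its level by coverage. With coverage put in FPKM units, Rasgrp2 was 95.3% to 97.6% of the sum in Skiv2l-deleted libraries and 68.0% to 81.9% in control libraries. By the same measure Rasgrp1 was 1.68%, 3.92% and 2.13% of it in Skiv2l-deleted libraries, against 27.7%, 30.9% and 17.4% in control libraries, and the ratio of the summed means was 1.24, against 1.6 by FPKM. Without Rasgrp2, which acts mainly on Rap, and with Sos1 added, the sum was lower in Skiv2l-deleted libraries. The only gene of that sum called lower is Rasgrp1, which was chosen with its difference in view. Sos2, an exchange factor outside the 9 genes, is not in the sum. Its mean was 11.8 ± 1.64 FPKM in Skiv2l-deleted and 10.5 ± 1.37 FPKM in control libraries (SD, n = 3 each). Rasgrp1, Rasgrp3 and Sos1 together had 10.7 ± 0.782 FPKM in Skiv2l-deleted and 19.6 ± 3.48 FPKM in control libraries, and Rasgrp1 was 8.83% to 21.3% of this sum in Skiv2l-deleted libraries, against 55.0% to 56.9% in control libraries (11.1% to 28.8% and 65.9% to 66.8% by coverage, in Skiv2l-deleted and control libraries).

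Dusp6, an ERK phosphatase, was the most abundant of the feedback genes among the 9. The gene (chr10:99263231-99267489, plus strand) had 57.5, 48.2 and 56.9 FPKM in Skiv2l-deleted libraries, against 44.2, 28.6 and 48.4 FPKM in control libraries. Control 2 was well below the other controls, and control 3 was just above Skiv2l-deleted 2, so the groups overlapped. The log2 fold change was 0.44, with a 95% interval of -0.03 to 0.92 (limma adjusted p = 0.225). Without control 3 and Skiv2l-deleted 2 it was 0.67 (limma adjusted p = 0.0957).

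Spred2 was the feedback gene with the largest difference of the 5. The gene (ENSMUSG00000045671.17, chr11:19924375-20024026, plus strand) had 13.8, 10.7 and 12.3 FPKM in Skiv2l-deleted libraries, against 7.94, 4.94 and 5.10 FPKM in control libraries. All Skiv2l-deleted libraries were above all control libraries, and control 1 was the highest control. Mean coverage of the gene was low, at 2.13-, 1.82- and 2.38-fold in Skiv2l-deleted libraries and 1.21-, 0.740- and 0.772-fold in control libraries. FPKM was 11.5 to 12.9 times the level by coverage, and with coverage put in FPKM units Spred2 was below the filter. The means were 12.2 ± 1.53 FPKM and 5.99 ± 1.69 FPKM (SD, n = 3 each), a ratio of 2.04 for Skiv2l-deleted over control. The log2 fold change was 0.94 ± 0.19 (SE; 95% interval 0.48 to 1.40; limma adjusted p = 0.0305). The call was kept in 9 of the 17 alternatives that gave a value, and among the omissions of 1 library it was kept without control 1 (0.0363) and control 3 (limma adjusted p = 0.0473). It was lost without control 2 (0.0863) and without the first (0.129), the second (0.0539) or the third Skiv2l-deleted library (limma adjusted p = 0.122), and without both control 3 and Skiv2l-deleted 2 (0.0513).

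Spred1 lies on chromosome 2 at chr2:117121374-117182279 on the plus strand, facing Rasgrp1 with 97713 bases between the genes. It had 7.14, 4.85 and 6.39 FPKM in Skiv2l-deleted libraries, against 4.66, 4.57 and 2.88 FPKM in control libraries. The groups did not overlap, although Skiv2l-deleted 2 was only just above control 1. The log2 fold change was 0.51, with a 95% interval of 0.02 to 0.995, and was not called (limma adjusted p = 0.182). The neighbours therefore lay on opposite sides of 0. The Spred1 and Spred2 sum was 18.4 ± 2.69 FPKM in Skiv2l-deleted and 10.03 ± 2.35 FPKM in control libraries, a ratio of 1.83. This sum also depends on the deposited measure. Across the libraries Spred2 was 52.0% to 68.8% of it by FPKM, but 9.25% to 18.0% with coverage put in FPKM units, where the ratio was 1.59.

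The Sprouty genes differed from each other in direction, neither being called. Spry1 (chr3:37639947-37644598, plus strand) had 2.87, 1.46 and 1.69 FPKM in Skiv2l-deleted libraries, against 1.40, 0.754 and 1.22 FPKM in control libraries. All Skiv2l-deleted values were above all control values, by little in 2 of the libraries, and the log2 fold change was 0.48 (95% interval -0.04 to 1.01; limma adjusted p = 0.234). Spry1 overlaps the antisense gene Gm42922, whose reads may be counted with it. Spry2 (chr14:105891947-105896819, minus strand), a gene with 1 annotated transcript, had 5.23, 7.03 and 5.89 FPKM in Skiv2l-deleted libraries, against 7.80, 5.14 and 7.00 FPKM in control libraries. The groups overlapped, and the log2 fold change was -0.11 (95% interval -0.54 to 0.32), or 0.0001 without control 1. The Spry1 and Spry2 sum was 8.06 ± 0.459 FPKM in Skiv2l-deleted and 7.77 ± 1.70 FPKM in control libraries, a ratio of 1.04.

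Without control 3 and Skiv2l-deleted 2, the log2 fold changes of the remaining genes were -0.16 for Rasgrp3, 0.17 for Sos1, 0.46 for Spred1, 0.65 for Spry1 and -0.17 for Spry2. None of these 5 was called in those 4 libraries, with limma adjusted p between 0.0754 for Spred1 and 0.631 for Rasgrp3.

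**Figure D2:**
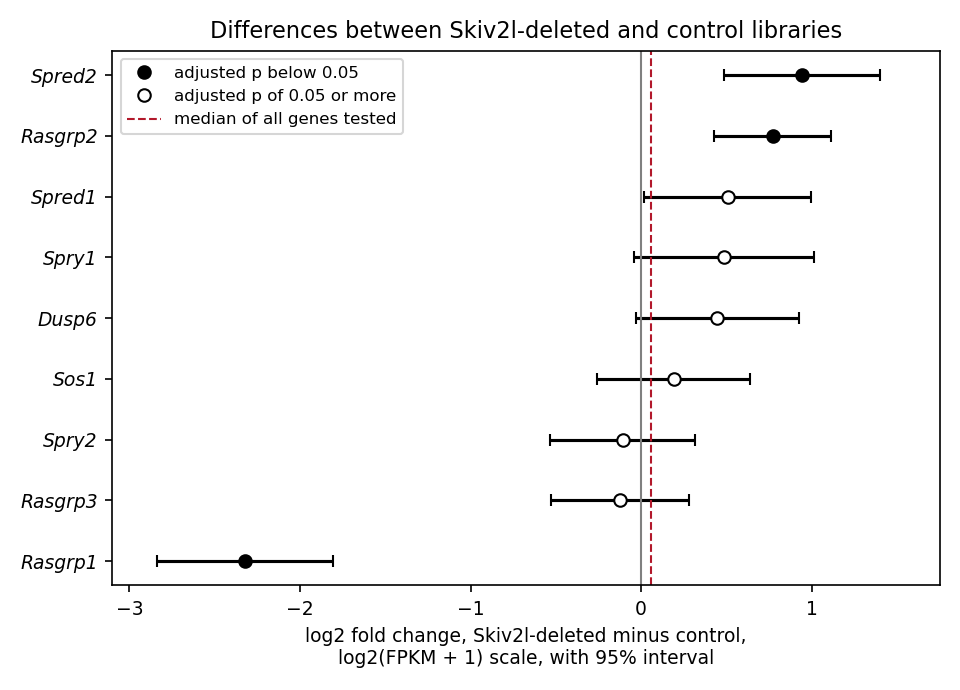
Log2 fold change of each gene, Skiv2l-deleted minus control on the log2(FPKM + 1) scale, with its 95% interval from the limma fit. Filled points have an adjusted p below 0.05, and the dashed line is the 0.06 median of all genes tested. Spred2 (0.94) and Rasgrp2 (0.77) lie at the top and Rasgrp1 (-2.32) at the bottom, and the intervals of Spry1, Dusp6, Sos1, Spry2 and Rasgrp3 include 0.

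By FPKM, the order of levels in Skiv2l-deleted libraries was Rasgrp2, Dusp6 and Spred2, each separate from the next, followed by Sos1, Spred1 and Spry2, whose ranges overlapped, and then by Rasgrp3, Spry1 and Rasgrp1, whose ranges also overlapped. In control libraries it was Rasgrp2, Dusp6 and Rasgrp1, again separate from each other, followed by Spry2, Spred2, Sos1, Spred1 and Rasgrp3, where each overlapped the next, and by Spry1 alone at the bottom. By mean FPKM Rasgrp1 was thus 9th of 9 in Skiv2l-deleted libraries and 3rd in control libraries. By mean coverage it was 7th in Skiv2l-deleted libraries, above Spred2 and Rasgrp3, and 3rd in control libraries. Between mice of 1 genotype, the SD of log2(FPKM + 1) was 0.10 for Rasgrp2 to 0.35 for Spry1 among Skiv2l-deleted libraries, and 0.23 for Rasgrp3 to 0.39 for Dusp6 among control libraries.

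The levels, more than the differences, depend on the deposited measure. In genes with a single transcript FPKM and mean coverage were in a fixed ratio within each library, so coverage can be put in FPKM units. For Rasgrp2, with 24 annotated transcripts, FPKM was 6.04 to 6.71 times the coverage-based level, for Rasgrp3 6.13 to 7.69 times and for Spred2 11.5 to 12.9 times. For the other 6 genes it was at most 1.38 times. By coverage Rasgrp2 was at 46.1, 45.8 and 50.9 in Skiv2l-deleted and 27.5, 24.3 and 36.5 in control libraries, close to Dusp6 at 43.3, 37.5 and 43.5 in Skiv2l-deleted and 32.0, 20.9 and 36.6 in control libraries. Spred2 by coverage was at 1.15, 0.909 and 0.991 in Skiv2l-deleted and 0.615, 0.400 and 0.442 in control libraries, below Spry2 in every library. The ratios of Skiv2l-deleted to control means moved little, at 1.62 by coverage for Rasgrp2, 2.09 for Spred2 and 0.128 for Rasgrp1, against 1.70, 2.04 and 0.129 by FPKM.

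The genes whose log2(FPKM + 1) was most like that of each called gene, among genes at a mean of 10 FPKM or more, were found by Pearson r over the 6 libraries. For Rasgrp1 they were Lmo4 (r = 0.999), a LIM-domain transcription cofactor, and Trib2 (r = 0.995), a pseudokinase. Lmo4 had 52.1, 64.5 and 55.6 FPKM in Skiv2l-deleted libraries, against 160, 161 and 134 FPKM in control libraries. For Rasgrp2 they were Vpreb2 (r = 0.998) and Vpreb1 (r = 0.997), which encode the surrogate light chain of the pre-B cell receptor. Vpreb1 had 803, 762 and 1008 FPKM in Skiv2l-deleted libraries, against 341, 249 and 492 FPKM in control libraries, and like Rasgrp2 it was lowest in control 2. For Spred2 they were Gimap8, a GTPase of lymphocytes, and Mta1, a subunit of the NuRD chromatin complex (r = 0.997 for both). The 6 points form 2 groups by genotype, which all of these correlations share, and they are given as a description.

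The rest of the pathway was read from 6 lists with 107 genes, of which 86 were tested. In the limma fit 8 were called higher (9.30%) and 3 lower (3.49%) in Skiv2l-deleted libraries, beside 4.97% and 3.87% of all genes tested. Their median log2 fold change was 0.13, beside 0.06. The counts moved with single libraries. Called higher were 3, 2 and 11 genes without control 1, 2 and 3, and 0, 5 and 0 without Skiv2l-deleted 1, 2 and 3. Called lower were 0, 2 and 3 without control 1, 2 and 3, and 0, 1 and 0 without Skiv2l-deleted 1, 2 and 3. Without both control 3 and Skiv2l-deleted 2 they were 14 higher and 4 lower.

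**Figure D3:**
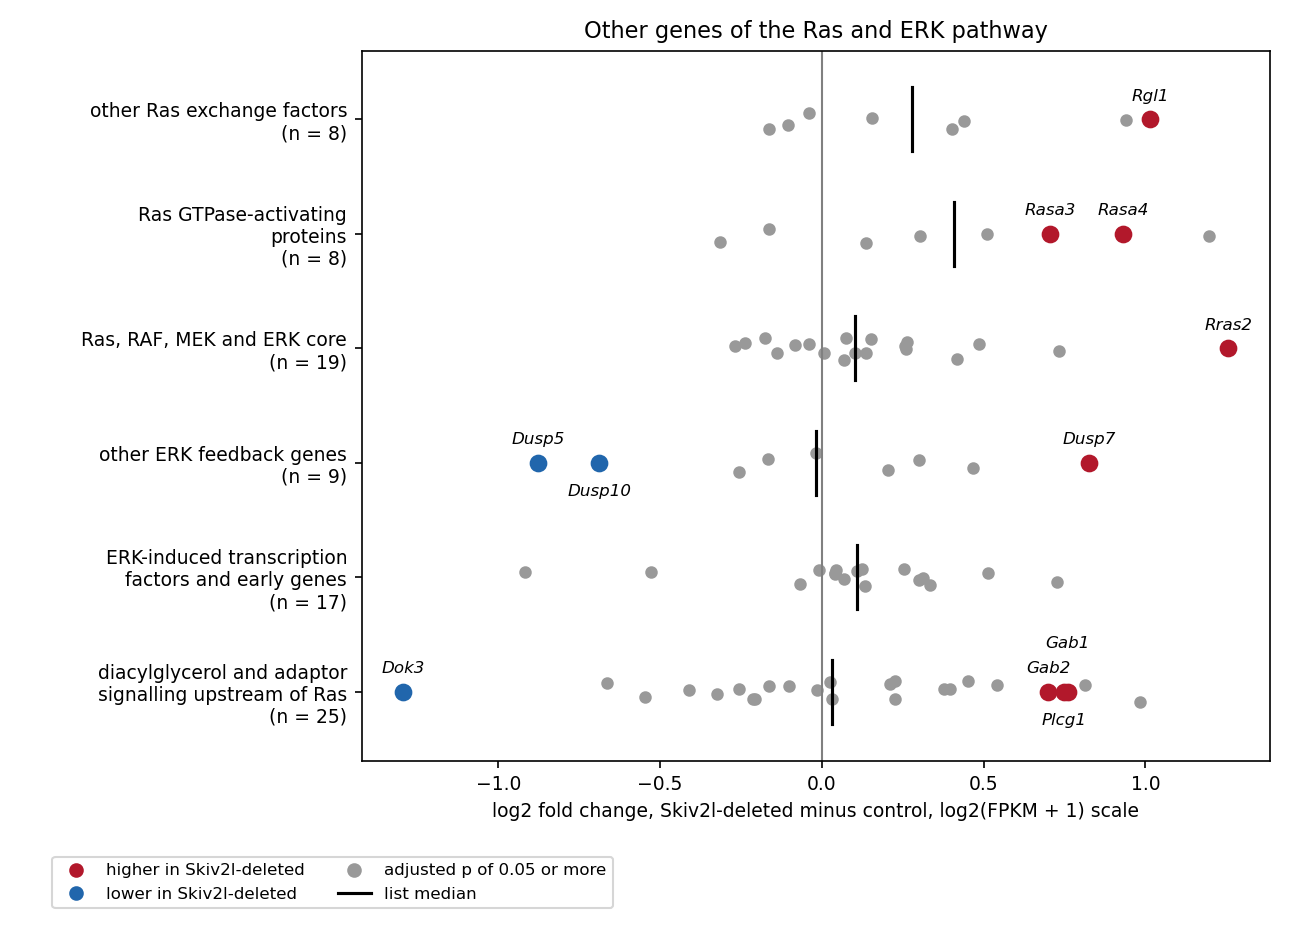
Log2 fold change, Skiv2l-deleted minus control on the log2(FPKM + 1) scale, of each tested gene in 6 lists of the Ras and ERK pathway, with the list median as a black line. Named points had an adjusted p below 0.05 in the limma fit (red higher, blue lower in Skiv2l-deleted), and vertical scatter has no meaning. List medians run from -0.02 for the other ERK feedback genes to 0.41 for the Ras GTPase-activating proteins.

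Among other exchange factors 1 of 8 tested was called, in the higher direction, with a list median of 0.28. It was Rgl1, which does not load Ras but is a Ras effector that activates Ral, at 17.2 ± 1.22 FPKM in Skiv2l-deleted and 8.04 ± 1.23 FPKM in control libraries (SD, n = 3 each; log2 fold change 1.01, limma adjusted p = 0.010). Ras GTPase-activating proteins, which turn Ras off, had 2 of 8 called higher and a median of 0.41. These were Rasa4 (49.3 ± 5.91 FPKM in Skiv2l-deleted and 25.8 ± 6.41 FPKM in control libraries; 0.93, limma adjusted p = 0.0308) and Rasa3 (61.7 ± 5.15 FPKM in Skiv2l-deleted and 37.7 ± 5.84 FPKM in control libraries; 0.71, limma adjusted p = 0.0291), the second of which also acts on Rap. No gene of either list was called lower, and none was lower at an unadjusted p below 0.05.

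In the core of Ras, RAF, MEK and ERK genes 1 of 19 was called. It was Rras2, a Ras-related GTPase also known as TC21, with 43.0, 35.3 and 46.3 FPKM in Skiv2l-deleted libraries, against 14.7, 15.2 and 20.9 FPKM in control libraries. The lowest Skiv2l-deleted library was above the highest control library, and the log2 fold change was 1.26 ± 0.17 (SE; limma adjusted p = 0.010). The list median was 0.10. Rras2 and Rgl1 each kept the call in 4 of the 6 omissions of 1 library and lost it without Skiv2l-deleted 1 (limma adjusted p = 0.0563 and 0.0587) or Skiv2l-deleted 3 (0.0553 and 0.0603).

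The other ERK feedback genes split. Of 9 tested, 2 were called lower and 1 higher, with a median of -0.02. Dusp5, a nuclear ERK phosphatase, had 6.31, 7.88 and 8.55 FPKM in Skiv2l-deleted libraries, against 14.3, 12.3 and 17.9 FPKM in control libraries (log2 fold change -0.88, limma adjusted p = 0.0282). Dusp10, which acts mainly on the stress kinases p38 and JNK, had 2.87, 2.37 and 3.39 FPKM in Skiv2l-deleted libraries, against 5.76, 4.58 and 5.34 FPKM in control libraries (-0.69, limma adjusted p = 0.0418). Dusp7, a cytoplasmic ERK phosphatase related to Dusp6, had 24.3, 16.2 and 25.4 FPKM in Skiv2l-deleted libraries, against 13.4, 10.6 and 11.3 FPKM in control libraries (0.83, limma adjusted p = 0.0435). The groups did not overlap in any of the 3 genes. Omitting 1 library kept the call of Dusp5 in 2, of Dusp7 in 1 and of Dusp10 in 0 of 6 cases, with limma adjusted p between 0.0349 and 0.115 for Dusp5, 0.0227 and 0.172 for Dusp7, and 0.0560 and 0.154 for Dusp10.

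ERK-induced transcription factors and early genes serve as a readout of recent ERK activity in many cells. Of 25 listed, 17 were tested and 8 were below the filter. Of those tested 0 were called by limma, beside 8.84% of all genes tested. At an unadjusted p below 0.05 there were 2 higher and 0 lower. The list median was 0.11, beside 0.06 for all genes tested. Leaving out control 3 gave 2 called higher.

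Upstream of Ras, 25 diacylglycerol and adaptor genes had 3 called higher, 1 called lower and a median of 0.03. Dok3, an adaptor that restrains B cell receptor signalling, had 85.7, 155 and 120 FPKM in Skiv2l-deleted libraries, against 314, 228 and 334 FPKM in control libraries (log2 fold change -1.29, limma adjusted p = 0.0230). Every Skiv2l-deleted library was below every control library. Plcg1, a phospholipase that makes diacylglycerol, averaged 65.8 ± 1.64 FPKM in Skiv2l-deleted and 39.4 ± 8.24 FPKM in control libraries (0.75, limma adjusted p = 0.0338). The docking proteins Gab1 (5.30 ± 0.702 FPKM in Skiv2l-deleted and 2.74 ± 0.661 FPKM in control libraries) and Gab2 (11.1 ± 1.09 FPKM in Skiv2l-deleted and 6.50 ± 1.01 FPKM in control libraries) were also called higher, with limma adjusted p = 0.0453 and 0.0318. Dok3 kept its call in 3 of 6 omissions of 1 library, Plcg1 in 2, and Gab1, Gab2, Rasa3 and Rasa4 in 1 each. Of the called pathway genes, Rgl1, Rasa4, Rras2, Dusp5, Dusp10, Plcg1 and Gab1 overlap a gene on the opposite strand, so their reads are uncertain if strand was not used in counting. Without control 3 and Skiv2l-deleted 2, calls were lost for Dusp10 (-0.58, limma adjusted p = 0.0810), Gab2 (0.70, 0.0612) and Plcg1 (0.79, 0.0654). The other 8 kept theirs, at log2 fold changes of 1.52 for Rras2, 1.18 for Rasa4, 1.001 for Dusp7, 0.98 for Rgl1, 0.80 for Rasa3, 0.78 for Gab1, -0.77 for Dusp5 and -1.39 for Dok3.

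Markers of B lineage stages moved with the genotype too. Summed FPKM of 13 pro-B cell markers was 4824, 4443 and 5536 in Skiv2l-deleted libraries, against 3644, 3049 and 4130 in control libraries, with Igll1, Cd79b and Vpreb1 as the most abundant. Of these 13 genes 6 were called higher and 1, Cd79a, lower in the limma fit. Cd79a, which drives the Cre, had 367, 368 and 441 FPKM in Skiv2l-deleted libraries, against 726, 640 and 739 FPKM in control libraries (limma adjusted p = 0.0123). Whether the Cre allele itself lowers Cd79a was not tested. Of 13 later B cell markers, led by Ighm, Igkc and Cd74, 12 were tested, and 11 of these were called lower and 0 higher, with 12 lower and 0 higher at an unadjusted p below 0.05. Without the 3 immunoglobulin genes their sum was 151, 228 and 183 FPKM in Skiv2l-deleted libraries, against 540, 476 and 539 FPKM in control libraries, 2.77-fold lower in Skiv2l-deleted. Rasgrp1, Dusp5, Dusp10 and Dok3 were lower beside these markers, and Rasgrp2 and Spred2 higher beside the pro-B sum. The part of cell stage in those differences was not tested. For each sum whose groups did not overlap, the exact two-sided permutation test of 3 against 3 gave 0.1, the smallest p it can give.

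Of 8 plasma cell markers, 6 were tested, of which 3 were lower and 1, Mzb1, higher, and their sum was 469 to 498 FPKM in Skiv2l-deleted libraries, against 655 to 899 FPKM in control libraries. Mzb1, Igha and Irf4 were the most abundant of them. Igha was at 0.302, 0 and 0.0845 FPKM in Skiv2l-deleted libraries, against 216, 164 and 380 FPKM in control libraries. Jchain was at 0, 0.233 and 0.0821 FPKM in Skiv2l-deleted libraries, against 44.5, 36.9 and 75.2 FPKM in control libraries. Tnfrsf17 was at 0 in all Skiv2l-deleted libraries and at 0.348, 0.397 and 0.538 FPKM in control libraries. The sum of 14 T and NK cell markers was 65.3 to 107 FPKM in Skiv2l-deleted libraries, against 48.6 to 52.0 FPKM in control libraries. It was led by Lck, Lat (also in the upstream list above) and Klrb1c, 2 of 6 tested were called higher, and Cd3e was listed at 0 in all libraries but Skiv2l-deleted 2, where it was at 0.106 FPKM. Lck, the most abundant, averaged 27.7 ± 8.28 FPKM in Skiv2l-deleted and 27.9 ± 0.378 FPKM in control libraries (SD, n = 3 each). Cd3d and Cd3g were highest in control 2, at 0.527 and 0.249 FPKM, and at most 0.118 FPKM in the other libraries. Rasgrp1 is also expressed in T cells, and their part in its difference was not tested. Rasgrp2 is abundant in platelets. The 9 megakaryocyte and platelet markers were each below 1 FPKM in all libraries. Their sums were 0.603 to 2.17 FPKM in Skiv2l-deleted and 1.09 to 1.54 FPKM in control libraries. The part of T cells or other cell types in the Rasgrp2 difference was not tested.

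Myeloid and erythroid markers varied between mice rather than genotypes. The 12 myeloid markers summed to 333, 2839 and 87.9 FPKM in Skiv2l-deleted libraries, against 139, 416 and 1567 FPKM in control libraries. Of 10 erythroid markers 9 were found. These summed to 9.13, 222 and 4.93 FPKM in Skiv2l-deleted libraries, against 9.46, 9.24 and 17.1 FPKM in control libraries. The highest myeloid sums were in Skiv2l-deleted 2 and control 3, the libraries that stood apart. Of 8 plasmacytoid dendritic cell markers the sum was 271 to 366 FPKM in Skiv2l-deleted libraries, against 408 to 527 FPKM in control libraries, with 1 of 5 tested called higher and 1 lower. The gene called lower was Spib, the most abundant of them, at 116, 129 and 171 FPKM in Skiv2l-deleted libraries, against 422, 388 and 262 FPKM in control libraries. The sum thus mostly follows Spib, while 4 of the 5 tested had a log2 fold change above 0 and the list median was 0.84. The 9 stromal and endothelial markers overlapped, at 36.2 to 49.8 FPKM in Skiv2l-deleted and 46.0 to 57.5 FPKM in control libraries. Exact permutation p was 1 for megakaryocyte, 1 for erythroid, 0.9 for myeloid and 0.3 for stromal sums (two-sided). Without control 3 and Skiv2l-deleted 2, log2 ratios of the sums, Skiv2l-deleted over control, were 0.63 for pro-B, -0.99 for later B, -0.47 for plasma, 0.88 for T and NK, -0.41 for megakaryocyte, -0.41 for erythroid, -0.40 for myeloid, -0.69 for plasmacytoid dendritic and -0.38 for stromal markers.

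**Figure D4:**
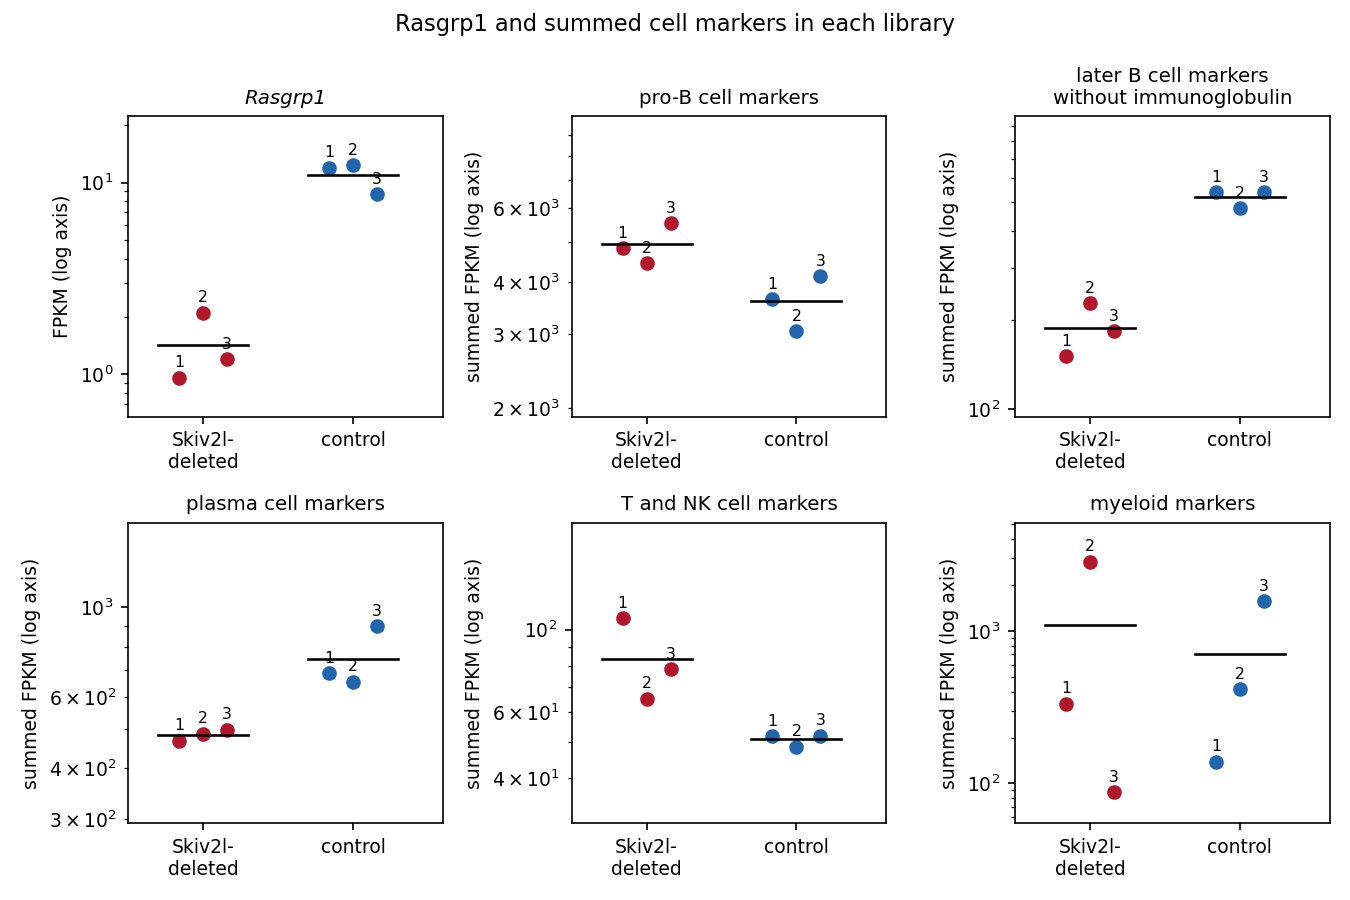
FPKM of Rasgrp1 and summed FPKM of 5 marker lists in each library on log axes, with Skiv2l-deleted at the left and control at the right. Points are libraries with their replicate number and lines are means (n = 3 each). Rasgrp1, the later B cell markers without immunoglobulin (151 to 228 FPKM in Skiv2l-deleted, against 476 to 540 FPKM in control libraries) and the plasma cell markers lie lower in Skiv2l-deleted, the pro-B and T and NK sums lie higher, and the myeloid sums overlap.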

How the data were processed

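For each mouse the authors deposited a table of FPKM, TPM (a level scaled to the same total in each library) and mean read coverage per gene, as named in the file headers. The submitters' processing notes name GRCm38 as the genome build, and the labels' protocols describe strand-specific libraries. No source used here names the aligner, the quantifier or its strand setting. No count model was run, because a share of 43.4% to 45.1% of low values came out as whole reads (tolerance 0.1), and no counting interval is given. Aligned bases (1.74 to 2.40 Gb) were derived from the ratio of the deposited FPKM to the deposited coverage in single-transcript genes. Identifiers on several lines (7 to 9 per table) were summed.

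Log2(FPKM + 1) was fitted with limma 3.58.1 in R 4.3.3 (lmFit, eBayes with a mean-variance trend, genotype as the only term) over 13539 genes that reached 1 FPKM in 3 or more libraries. A gene was called at a Benjamini-Hochberg adjusted p below 0.05. Each library is 1 mouse of its genotype. Marker sums were compared by an exact permutation test. The genes named are the 9, each pathway gene past the threshold, the 3 most abundant genes of marker lists the results stand beside, the 2 genes most like each called gene, and Skiv2l and Cd79a as checks of the labels. Mzb1, Cd3d, Cd3e, Cd3g, Sos2, Jchain and Tnfrsf17 were named after their values were seen. The members and all lists were chosen with earlier results of these data known. Identifiers were compared with GENCODE M21 (54723 of 54752 found), and promoters came from RefSeq. Protein identity between the members was not computed here. Alternatives were other pseudocounts, filters, scalings and units, a replicate block, and omission of libraries.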

Additional observations from a re-analysis of the deposited data

How the results depend on the processing

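Rasgrp1 was called lower under all 18 alternatives, and Sos1, Dusp6, Spred1, Spry1, Rasgrp3 and Spry2 under none of those that gave a value. Direction turned for Rasgrp3 (0.0077) and Spry2 (0.0001) without control 1. Without a filter on low values (28354 genes) 280 genes were called higher and 232 lower, with 0 of the 9 higher, 2 pathway genes higher and 0 lower, and Rasgrp2 (0.77, limma adjusted p = 0.0744) and Spred2 (0.94, 0.0914) lost their calls. Deviations from the group means had correlations of 0.0939, -0.4285 and -0.3547 between same-numbered libraries. The highest correlation was 0.557, between Skiv2l-deleted 2 and control 3, the libraries that stood apart. With 3 libraries per group these correlations cannot tell whether the replicate numbers pair the mice. A fit with the replicate block called 185 higher and 180 lower, with 0 of the 9 higher, 3 pathway genes higher and 0 lower, Rasgrp2 at 0.77 (limma adjusted p = 0.0552) and Spred2 at 0.94 (0.0548). With TPM 1 of the 9 was higher, and Spred2 was at 0.99 (limma adjusted p = 0.0509). In all 6 libraries the later B log2 ratio was -1.47 without the immunoglobulin genes. Coverage-based values, added after seeing the data, also gave 1 higher, Spred2 and Rasgrp3 being below the filter there. Without both control 3 and Skiv2l-deleted 2 there was 1 of the 9 higher, Spred2 was at 0.94 (limma adjusted p = 0.0513), 14 pathway genes were higher, and the erythroid log2 ratio was -0.41. Omitting 1 library at a time gave 63 to 1020 genes higher and 113 to 729 lower, 0 to 2 of the 9 higher and 1 lower, and 0 to 11 pathway genes higher and 0 to 3 lower. Over those omissions log2 fold changes were -2.51 to -2.19 for Rasgrp1, 0.66 to 0.90 for Rasgrp2, -0.21 to 0.0077 for Rasgrp3, 0.04 to 0.32 for Sos1, 0.22 to 0.59 for Dusp6, 0.33 to 0.64 for Spred1, 0.84 to 1.13 for Spred2, 0.29 to 0.61 for Spry1 and -0.26 to 0.0001 for Spry2. Log2 ratios of marker sums were 0.34 to 0.56 for pro-B, -1.06 to -0.90 for later B, -0.71 to -0.47 for plasma, 0.50 to 0.87 for T and NK, -0.60 to 0.37 for megakaryocyte, -0.76 to 3.28 for erythroid, -1.75 to 1.97 for myeloid, -0.63 to -0.40 for plasmacytoid dendritic and -0.35 to -0.12 for stromal markers. The median of all genes stayed between 0.01 and 0.07 in all settings. Where a call was lost the cause was not tested.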
